A study of Mus musculus with 90 samples.

Results

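The comparison set 4 livers of fed mice that had received dexamethasone (dex) together with S961 against 4 livers of unfed mice that had received vehicle, and asked what a meal still changed when glucocorticoid action stayed high and insulin action was blocked. These 8 libraries were chosen by their group labels out of 20 libraries of injected mice, 54 RNA libraries and 90 samples in the whole series. All mice of the injection experiment were wild-type C57BL/6 animals, given as 10-week-old C57BL/6N males in the study's methods, and were trained to night-restricted feeding. Before lights off at zeitgeber time (ZT) 12, each mouse had 1 intraperitoneal injection of PBS vehicle, dex, S961 or both, and livers were taken at ZT14 from mice with or without food. The dex dose was 1 mg/kg. The dose of S961 reads differently in the labels, which give 44 nM for each mouse, and in the study's methods, which give an amount per body weight. Every library was poly(A) RNA from the liver of a single mouse. Unfed mice received PBS only, so that food, dex and S961 cannot be told apart in this contrast, and fed mice with vehicle alone served to show where the injections moved the fed liver.

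Dex is a synthetic ligand of the glucocorticoid receptor (GR), a nuclear receptor that binds DNA and raises transcription of fasting genes in hepatocytes, and S961 is a peptide antagonist of the insulin receptor. After a meal, glucocorticoid falls and insulin rises. Insulin signals through insulin receptor substrates and AKT, which drives the transcription factor FOXO1 out of the nucleus and switches on SREBP-1c, the product of Srebf1 and the master regulator of lipid synthesis. Genes of glucose production, fatty acid oxidation and amino acid breakdown are therefore high before a meal, whereas genes of lipid synthesis are high after it.

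Liver identity was clear in all 8 libraries. The summed level of 11 hepatocyte markers was 58933 to 83925 RPKM (read counts divided by transcript length and library size) in unfed and 61550 to 78744 RPKM in fed dex + S961 livers. Of the markers tested from 10 cell types, 0 were called between the groups by limma, with 0 also at an unadjusted p under 0.05. Abundance allowed a test of only 1 of 11 lymphocyte, 1 of 6 adipocyte, 2 of 7 cholangiocyte, 2 of 8 neutrophil and 2 of 11 pancreas acinar markers. The acinar sum was 8.14 to 11.9 RPKM in unfed and 5.73 to 31.3 RPKM in fed dex + S961 livers. Of 6 adipocyte markers, 3 were listed at 0 in all 8 libraries, namely adiponectin, leptin and resistin. The other members, Plin1, Cfd and Fabp4, were not at 0 throughout. The adipocyte sum was 8.68 to 10.6 RPKM in unfed and 9.32 to 14.8 RPKM in fed dex + S961 livers. Relative depth, read from the smallest spacing of low values, was 0.646 to 1 over the 8 libraries, with unfed replicate 1 as the unit. Replicate 4 of each injected group stood apart. In the labels these libraries carry numbers from a later series than replicates 1 to 3, and they lay at 26.6 to 30.6 on the first principal component (23.2% of the variance), whereas replicates 1 to 3 lay between -27.7 and 0.16. Counts over all genes of the injected mice are therefore also given without replicate 4, and counts within a gene list where leaving it out moved them by over 1.5 times.

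**Figure D1:**
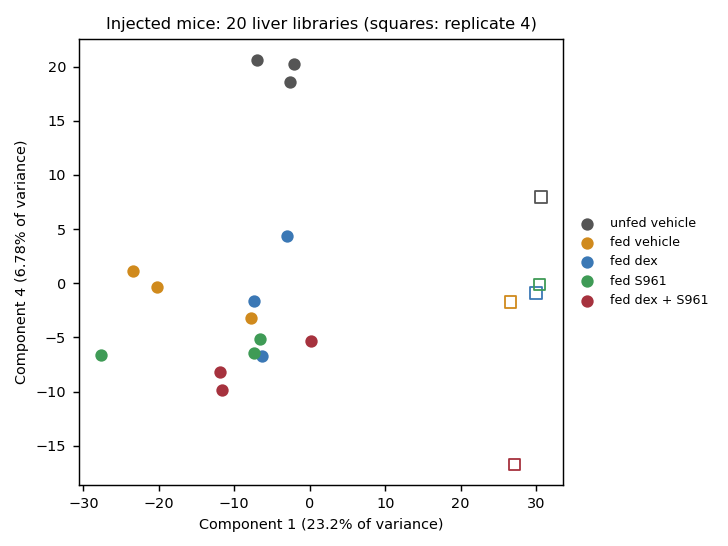
Each point is 1 liver library of the injected mice, placed by its scores on component 1 (23.2% of the variance, x axis) and component 4 (6.78%, y axis), with squares for replicate 4. The 5 squares lie to the right of all other points, and on component 4, which was picked for display after its scores were seen, the unfed libraries (7.98 to 20.6) lie above the fed dex + S961 libraries (-16.7 to -5.37).

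Of 11248 genes tested, 148 (1.32%) were higher and 113 (1.00%) were lower in fed dex + S961 than in unfed livers at a Benjamini-Hochberg adjusted p under 0.05 (limma on log2(RPKM + 0.5), on which all fold changes are given). Among these, 50 rose and 16 fell by at least 2-fold on that scale, and the median log2 fold change of all genes was -0.04. The 4 and 4 values did not overlap for 1191 genes (10.6% of those tested), and for 144 of the genes called higher and 111 of those called lower. Without replicate 4 of every group, 175 genes were higher and 108 lower, of which 123 and 69 were among the genes called with all libraries. Without unfed replicate 1, 2 or 3, the counts were 87 and 46, 97 and 60, and 86 and 40. Without fed dex + S961 replicate 1, 2 or 4, they were 95 and 57, 96 and 47, and 98 and 47. After median-ratio scaling of the libraries, 192 genes were higher and 85 lower, and after quantile normalization 158 and 89. In whole liver, fewer cells of a type and less RNA per cell cannot be told apart.

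The same fit gave the other comparisons of the injected mice. Fed dex + S961 livers differed from fed vehicle livers in 303 genes that were higher (2.69%) and 889 that were lower (7.90%), with a median of all genes of -0.14. With median-ratio scaling the median was 0.01, 468 genes were higher and 305 lower. With quantile normalization the counts were 390 and 319, and without replicate 4 of every group 1291 genes were called, of which 364 were higher. The lower genes numbered 459 without fed dex + S961 replicate 2 and 478 without fed vehicle replicate 2. Fed vehicle livers, compared with the same unfed mice, had 287 genes higher (2.55%) and 65 lower (0.578%), with a median of all genes of 0.10. Scaling brought that median to -0.01 and the counts to 100 and 116, and quantile normalization to 113 and 102. Without replicate 4 of every group, 549 genes were higher and 169 lower in fed vehicle livers. These counts were 127 and 30, 88 and 33, and 146 and 39 without fed vehicle replicate 1, 2 or 3. They were 97 and 26, 67 and 19, and 94 and 27 without unfed replicate 1, 2 or 3.

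Few genes that the study follows as feeding-repressed or feeding-induced passed the test between fed dex + S961 and unfed livers. Of the 12 genes on this list, 5 had an unadjusted p under 0.05 (limma), so a missed call does not show that a gene was at its unfed level. Of 11 such genes reported here, 1 was called against the unfed mice, namely Srebf1, while 9 were called against fed vehicle. Most of them, such as Tat, Angptl4, Insig2 and Igfbp1, are examples that the study drew from its own calls in these same libraries. Those calls were of repression by feeding and of responses to dex or S961. The count against fed vehicle was thus largely fixed by that choice and is no independent support. With a term for the runs of library numbers, Ulk1, an autophagy kinase, was also called above unfed (log2 0.42, adjusted p = 0.036, 0.29 without the term). Igfbp1, which encodes an insulin-repressed binding protein of insulin-like growth factors, was at 169.5, 183, 82.2, and 42.8 RPKM in unfed livers, at 108, 197, 79.0, and 62.8 in fed dex + S961 livers and at 3.69, 3.28, 6.80, and 11.2 in fed vehicle livers. The first 2 groups overlapped throughout, and both lay above every fed vehicle liver. Against unfed, Igfbp1 had a log2 fold change of -0.01 with a 95% interval of -1.18 to 1.16, and against fed vehicle it was 16.8-fold higher (adjusted p = 0.00019). Tat, tyrosine aminotransferase and a classic GR target, gave 1929, 1950, 1720, and 1755 RPKM unfed and 2081, 1963, 1535, and 1760 RPKM in fed dex + S961, against 796, 729.9, 933, and 1040 RPKM in fed vehicle livers. Its log2 fold change was -0.01 (interval -0.47 to 0.45) against unfed and 1.07 against fed vehicle (adjusted p = 0.0046). Intervals of this width leave differences from the unfed level of more than 2-fold possible for Igfbp1 and of up to 0.47 (log2) for Tat.

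**Figure D2:**
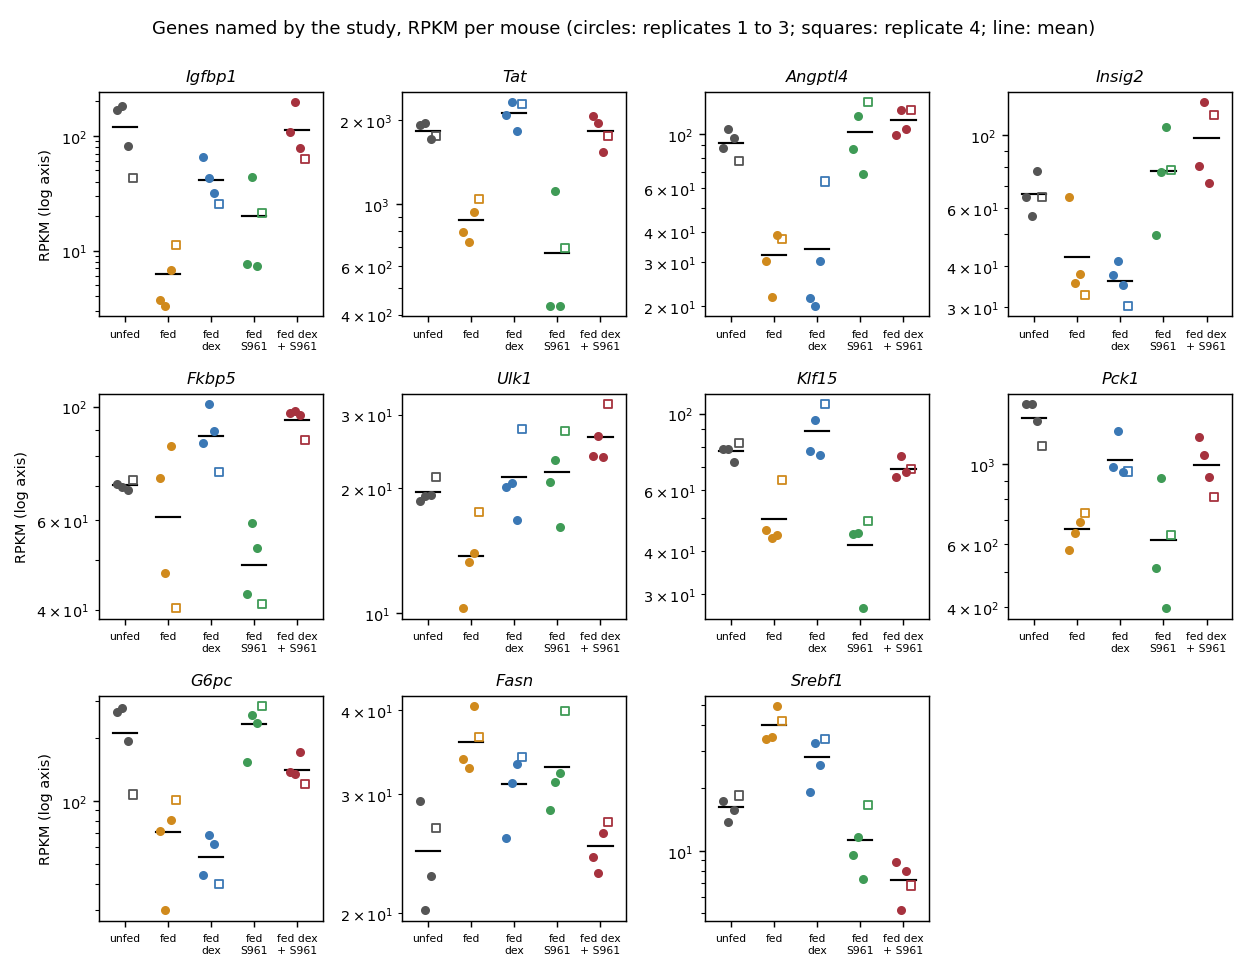
RPKM on a log axis for 11 genes of the study in the 5 groups of injected mice (x axis), with circles for replicates 1 to 3, squares for replicate 4 and a line at the mean. Igfbp1, Tat and Angptl4 overlap between unfed and fed dex + S961 livers, and Srebf1 is below every unfed liver in all 4 fed dex + S961 livers.

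Other feeding-repressed genes of the study had small positive or negative values against unfed that did not pass the test. Angptl4, an inhibitor of lipoprotein lipase, had a log2 fold change of 0.31 (interval -0.28 to 0.91), and the fasting-induced sterol regulator Insig2 one of 0.54 (interval 0.05 to 1.02, adjusted p = 0.34). Fkbp5, a GR co-chaperone and GR target, was at 68.5 to 71.7 RPKM in unfed and 86.0 to 98.1 RPKM in fed dex + S961 livers. Its groups did not overlap, but the adjusted p was 0.32. The gluconeogenic genes Pck1 and G6pc gave -0.44 (interval -0.84 to -0.04, adjusted p = 0.35) and -0.50 (interval -1.19 to 0.19). Against fed vehicle, Angptl4 was 3.57-fold, Insig2 2.31-fold, Ulk1 1.92-fold, and Fkbp5 1.61-fold higher (adjusted p of 0.00056, 0.0027, 0.0019, and 0.017), and G6pc 2.14-fold higher (adjusted p = 0.038). Fasn, fatty acid synthase, was 1.42-fold lower than in fed vehicle (adjusted p = 0.016). The call of G6pc was lost without any 1 of the fed dex + S961 libraries or of fed vehicle replicates 1 and 2, where its log2 fold change was 0.73 to 1.17. That of Fkbp5 was lost without fed dex + S961 replicate 2 (0.67) and fed vehicle replicates 2 (0.59) and 4 (0.51). That of Fasn was lost without fed dex + S961 replicate 2 (-0.46) or fed vehicle replicate 3 (-0.44), and with median-ratio scaling (-0.34). Pck1 and Klf15, a fasting transcription factor, had adjusted p-values of 0.057 and 0.055 against fed vehicle (log2 0.58 and 0.50). Both passed the threshold with a term for the runs of library numbers (0.036 and 0.015), without replicate 4 of every group (0.048 and 0.022) and with median-ratio scaling (0.024 and 0.021).

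Of 20 known GR targets, 5 rose above the unfed level and 0 fell, with a median of 0.40 beside -0.04 for all genes. Of all genes, 1.32% rose and 1.00% fell. Lcn2, which encodes the iron-carrier-binding protein lipocalin 2, was at 17.2, 23.3, 15.3, and 20.6 RPKM unfed and at 229, 189.8, 94.9, and 138 RPKM in fed dex + S961 livers. It had the largest rise that the naming rule picked, 8.01-fold (log2 3.00, SE 0.64, adjusted p = 0.014). All 4 treated livers were above every unfed liver, and the adjusted p was 0.056, 0.051, and 0.054 without fed dex + S961 replicate 1, replicate 2 or unfed replicate 3. Gadd45b, a stress-response gene of growth arrest, went from 1.91, 3.86, 2.48, and 2.93 to 18.6, 27.1, 12.4, and 22.8 RPKM, a 6.21-fold rise (SE 0.47 log2, adjusted p = 0.0053). Cdkn1a, the cell cycle inhibitor p21, rose 3.56-fold from 12.4 to 16.9 RPKM unfed to 32.8 to 76.2 RPKM (adjusted p = 0.0059). Dusp1, a phosphatase that switches off MAP kinases, rose 2.54-fold (adjusted p = 0.005), and 2.90-fold with dex alone (adjusted p = 0.0014). Sgk1, a kinase induced by glucocorticoid and named after its value was seen, rose 2.51-fold (adjusted p = 0.013, 0.056 without fed dex + S961 replicate 1). In fed vehicle livers the same 20 genes had a median of -0.40 against unfed with 0 higher and 3 lower, where 2.55% and 0.578% of all genes were. Against fed vehicle, 13 were higher and 0 lower in fed dex + S961 livers, where 2.69% and 7.90% of all genes were. Without replicate 4 of every group, these counts were 1 and 4 in fed vehicle against unfed livers. They were 14 and 1 in fed dex + S961 against fed vehicle livers.

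**Figure D3:**
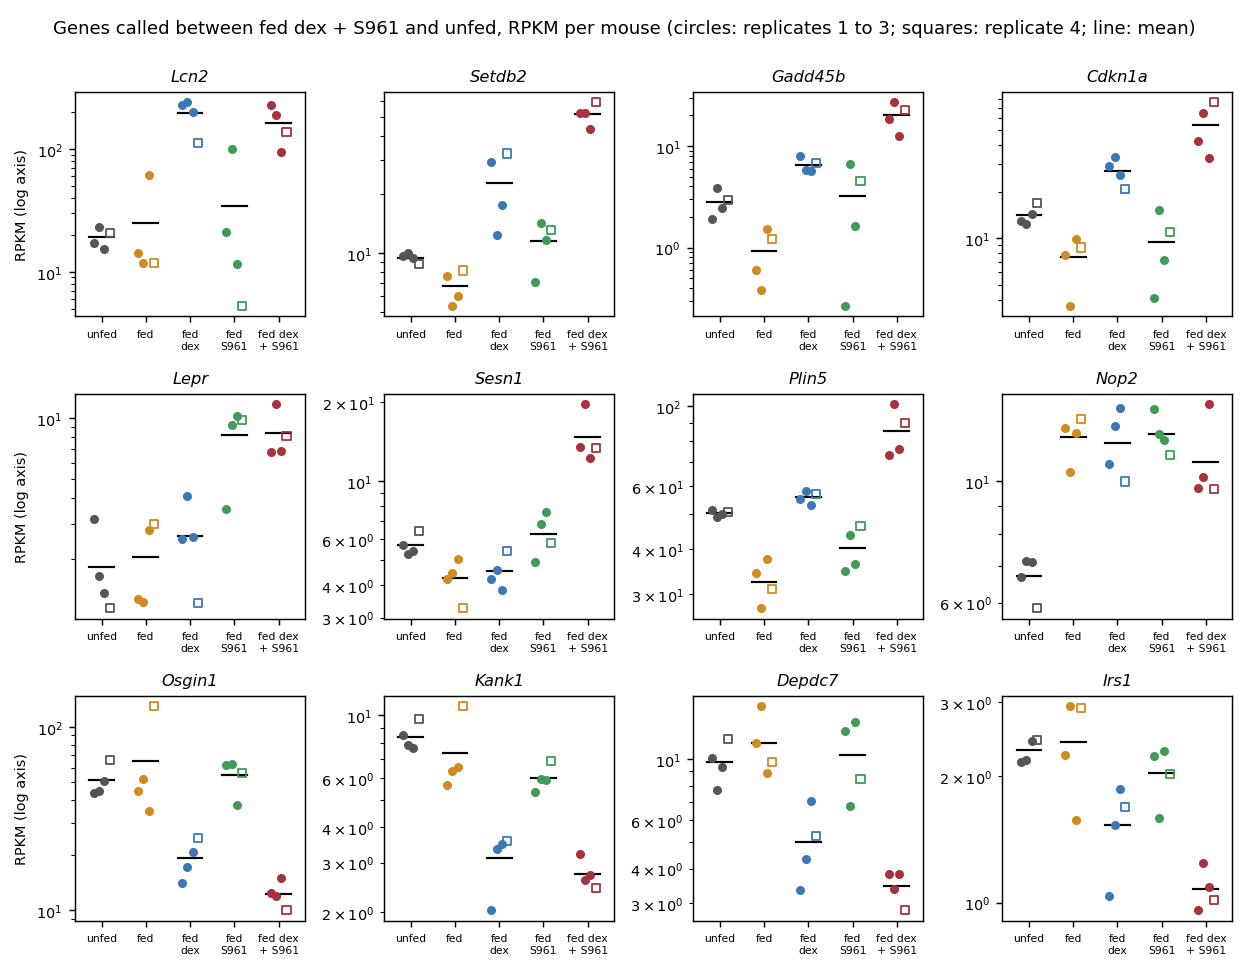
RPKM on a log axis for 12 genes called between unfed and fed dex + S961 livers, in the 5 groups of injected mice (circles for replicates 1 to 3, squares for replicate 4, line for the mean). For Setdb2, Gadd45b, Cdkn1a, Sesn1 and Plin5 the fed dex + S961 livers lie above those of all other groups on average, and Nop2 is above the unfed livers in every fed group.

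A single locus on chromosome 14 gave the rises with the lowest adjusted p-values among the named genes. Setdb2, a protein of the histone H3 lysine 9 methyltransferase family, was at 9.65, 9.97, 9.38, and 8.76 RPKM unfed and 52.0, 52.5, 43.4, and 59.5 RPKM in fed dex + S961 livers, with 7.62, 5.33, 6.01, and 8.13 RPKM in fed vehicle livers. The treated livers were 5.24-fold above unfed (log2 2.39, SE 0.24, adjusted p = 3.2e-05) and 7.25-fold above fed vehicle (adjusted p = 1.3e-06). The neighbour Phf11c rose 6.71-fold (adjusted p = 7e-06), and Gm45935, a transcript that reads through from one to the other, 5.55-fold (adjusted p = 1.1e-05). Because the 3 annotations overlap, the division of reads between them is uncertain, and they count as 1 locus. The Setdb2 gene lies at chr14:60020846-60059721 on the minus strand of mm9 (NCBIM37). Dex alone also raised Setdb2 in fed mice against unfed (log2 1.14, adjusted p = 0.013), whereas S961 alone gave 0.23 (adjusted p = 0.81).

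The sequences under GR peaks near 6 of these and other named genes are shown because they are measured binding sites beside genes described here. They were picked for display after values were seen, and other named genes with larger rises than Sgk1 and Got1, such as Gdf15, Cdkn1a and Cldn14, also have a GR peak near their start. The peaks were called in the study from liver chromatin of unfed mice at ZT14 without injection, in mm9. Binding in fed dex + S961 livers was not measured. Each 180-base sequence was read on the plus strand of NCBIM37. Capitals mark AGAACA, any 3 bases and TGTTCT with at most 2 mismatches, which reads the same on both strands, or the FOXO motif GTAAACA or its reverse complement TGTTTAC. For Sesn1, 29 bases of a FOXO1 peak at its start are shown.
Lcn2, chr2:32243365-32243544: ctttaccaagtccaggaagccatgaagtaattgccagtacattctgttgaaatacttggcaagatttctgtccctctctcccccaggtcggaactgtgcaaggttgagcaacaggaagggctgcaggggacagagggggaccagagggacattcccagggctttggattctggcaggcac
Setdb2, chr14:60062891-60063070: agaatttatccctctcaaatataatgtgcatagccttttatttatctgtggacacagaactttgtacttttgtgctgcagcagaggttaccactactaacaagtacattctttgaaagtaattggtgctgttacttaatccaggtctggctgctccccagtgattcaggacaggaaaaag
Sgk1, chr10:21713383-21713562: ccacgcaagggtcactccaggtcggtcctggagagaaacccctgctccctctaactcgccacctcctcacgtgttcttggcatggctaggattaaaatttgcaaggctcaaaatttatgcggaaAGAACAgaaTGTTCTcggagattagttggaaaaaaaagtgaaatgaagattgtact
Got1, chr19:43599370-43599549: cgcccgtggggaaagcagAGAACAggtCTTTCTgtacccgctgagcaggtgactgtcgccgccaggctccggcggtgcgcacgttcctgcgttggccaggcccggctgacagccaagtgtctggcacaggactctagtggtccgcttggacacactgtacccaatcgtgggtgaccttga
Tat, chr8:112511773-112511952: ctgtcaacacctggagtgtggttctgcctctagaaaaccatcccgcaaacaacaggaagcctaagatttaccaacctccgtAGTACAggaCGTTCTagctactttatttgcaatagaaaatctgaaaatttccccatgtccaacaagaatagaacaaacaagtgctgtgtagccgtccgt
Ppp1r3g, chr13:36051690-36051869: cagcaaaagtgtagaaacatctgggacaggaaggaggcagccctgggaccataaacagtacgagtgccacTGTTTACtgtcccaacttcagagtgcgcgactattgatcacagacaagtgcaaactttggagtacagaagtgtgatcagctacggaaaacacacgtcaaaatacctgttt
Sesn1, chr10:41530391-41530419: gaaccttctacTGTTTACcagccttttgg
The Sgk1 sequence holds the GR motif with 0 mismatches within the gene, 224 bases from an annotated start. Got1 and Tat hold it with 2 mismatches, 364 and 2475 bases from their starts. No GR motif by this definition lies in the Lcn2, Setdb2 or Ppp1r3g sequences, and the Setdb2 peak lies within the neighbouring gene Cab39l, 3259 bases from the Setdb2 start. Of all 10446 GR peaks, 9.9% hold the GR motif and 7.3% the FOXO motif, and of 8546 FOXO1 peaks 4.6% and 18.8% do.

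Of 18 insulin-repressed FOXO1 targets, 2 rose and 0 fell, where 1.32% of all genes rose and 1.00% fell. The count of 0 holds for these 18 only. Depp1, counted under autophagy and not here, fell against unfed (log2 -1.70, adjusted p = 0.032, limma). It was also lower in fed vehicle than unfed livers (-2.99, adjusted p = 0.0029). In fed mice given dex, Depp1 was higher after liver loss of Irs1 and Irs2 (3.19, adjusted p = 0.0033). Of the 18 listed genes, 12 had a negative and 6 a positive value against unfed, with a median of -0.06. The lowest value was -1.21, that of the transcriptional repressor Bcl6, named after its value was seen (adjusted p = 0.57). Sesn1, a sestrin that restrains mTORC1, was at 5.71, 5.23, 5.38, and 6.43 RPKM unfed and 13.5, 19.7, 12.2, and 13.3 RPKM in fed dex + S961 livers, a 2.42-fold rise (SE 0.16 log2, adjusted p = 0.00022). The groups were well apart, with replicate 2 the highest. Ppargc1a, the gluconeogenic coactivator PGC-1 alpha, rose 1.58-fold from 2.79 to 3.35 RPKM unfed to 3.90 to 6.45 RPKM (adjusted p = 0.023). Its adjusted p was 0.065 to 0.092 without fed dex + S961 replicate 2 (0.092) or 4 (0.086), or unfed replicate 1 (0.075), 2 (0.065) or 3 (0.077). Lepr and Ppp1r3g are not in that list and were named for the size of their rise. Lepr, the leptin receptor, went from 3.17, 1.65, 1.37, and 1.15 to 6.80, 11.7, 6.84, and 8.15 RPKM and rose 3.90-fold (adjusted p = 0.005). Ppp1r3g, which directs protein phosphatase 1 to glycogen, went from 1.64, 2.59, 0.78, and 0.506 to 5.32, 9.98, 3.65, and 8.49 RPKM. Its rise was 4.05-fold (SE 0.49 log2, adjusted p = 0.034), but the adjusted p was 0.061 without replicate 4 of every group. It was also 0.069, 0.12, 0.11, 0.066, 0.12, and 0.11 without fed dex + S961 replicate 1, 2 or 4 or unfed replicate 1, 3 or 4. In fed mice with S961 alone, Lepr was higher than unfed by 1.87 (log2, adjusted p = 0.0083) and Ppp1r3g by 1.83 (adjusted p = 0.072).

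Among components of insulin and glucocorticoid signalling (15 genes), Irs1 fell and Foxo1 rose, and the median was -0.07. Of all genes, 1.00% fell and 1.32% rose. Irs1, an adaptor of the insulin receptor, was at 2.15, 2.19, 2.43, and 2.44 RPKM unfed and at 0.959, 1.25, 1.09, and 1.01 RPKM in fed dex + S961 livers (1.78-fold lower, adjusted p = 0.0086). All 4 treated livers were below every unfed liver and every fed vehicle liver. As 30.9% of the exon bases of Irs1 are shared with Gm9747 on the opposite strand, and the strand counted was not given in the sources used here, reads of the pair cannot be told apart. Foxo1 rose 1.28-fold (adjusted p = 0.036), a call that was lost without any 1 of the 8 libraries (adjusted p of 0.053 to 0.12) and without replicate 4 of every group (0.14). The receptor genes did not pass the test: Insr was at 13.97 to 19.5 RPKM unfed and 15.6 to 19.7 RPKM in fed dex + S961 livers, and Nr3c1, the GR gene, at 12.3 to 14.6 and 9.87 to 14.8 RPKM.

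Some genes of lipid storage rose. Of 15 genes of triglyceride synthesis and lipid droplets, 4 were higher and 0 lower than unfed (median 0.28), and 8 were higher than in fed vehicle livers. Plin5, a droplet coat protein that ties droplets to mitochondria, was at 51.5, 49.1, 50.1, and 50.9 RPKM unfed, 73.4, 101.6, 76.3, and 89.7 RPKM in fed dex + S961 and 34.2, 27.3, 37.4, and 30.8 RPKM in fed vehicle livers. The 3 groups did not overlap, with fed vehicle lowest and fed dex + S961 highest. Plin5 was thus 1.67-fold above unfed (SE 0.12 log2, adjusted p = 0.0018) and 2.60-fold above fed vehicle (adjusted p = 1.3e-06). Cidec, which fuses droplets, went from 3.69, 3.47, 3.405, and 3.62 to 11.3, 10.3, 5.95, and 11.1 RPKM and rose 2.45-fold (adjusted p = 0.0022). In fed mice with S961 alone, Cidec was likewise above unfed (log2 1.26, adjusted p = 0.0044). Plin4, another droplet coat protein, rose 2.13-fold (adjusted p = 0.0091). Lpin1, a phosphatidate phosphatase and coactivator, was at 199 to 206 RPKM unfed and 362 to 387 RPKM in fed dex + S961 livers and rose 1.86-fold (adjusted p = 0.036), although the adjusted p reached 0.07 to 0.099 without any 1 of the 8 libraries. Acsl1, which activates long-chain fatty acids, rose 1.42-fold (adjusted p = 0.031), with adjusted p-values of 0.076, 0.08, 0.12, 0.13, 0.056, and 0.091 without fed dex + S961 replicate 2, 3 or 4 or unfed replicate 1, 2 or 3, and 0.058 without replicate 4 of every group. S961 alone gave Acsl1 a log2 fold change of 0.68 against unfed (adjusted p = 0.0059). None of 26 genes of fatty acid oxidation and ketogenesis passed the limma test against unfed (median 0.13), with 4 at an unadjusted p under 0.05. That count of 0 lies near the share of all genes (1.32% higher and 1.00% lower). Of the 26, 5 were higher than in fed vehicle livers, where 2.69% of all genes were, or 8 after median-ratio scaling.

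Of 11 genes on the gluconeogenesis list, 3 rose and 0 fell against unfed (median 0.00), namely Got1, Lpin1 and Ppargc1a. Of all genes, 1.32% rose and 1.00% fell. In the list, 6 genes had a positive and 5 a negative value. Lpin1 and Ppargc1a are not enzymes of glucose production and were also described with other lists above. The enzyme genes G6pc (-0.50) and Fbp1 (-0.17) were not called. Against fed vehicle, 6 of the 11 were higher, where 2.69% of all genes were. Got1, cytosolic aspartate aminotransferase, was at 280.5, 263, 273, and 179 RPKM unfed and at 525, 598, 453, and 479.8 RPKM in fed dex + S961 livers. It was 2.08-fold above unfed (adjusted p = 0.039) with no overlap, and the adjusted p was 0.065 to 0.12 without any 1 of the libraries. Of 26 genes of amino acid breakdown, 2 rose and 0 fell, Got1 and the lysine-degrading Aass (1.86-fold, adjusted p = 0.032). The call of Aass was lost without any 1 library (adjusted p of 0.062 to 0.096). Slc25a15, the mitochondrial ornithine carrier of the urea cycle, was the 1 of 12 amino acid transporters that rose, from 83.0 to 98.7 RPKM unfed to 139 to 204 RPKM (1.81-fold, adjusted p = 0.0038). After scaling, and without replicate 4 of every group, 2 of the 12 rose. The counts in the amino acid lists are of few genes and were not tested against the shares of all genes.

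The acute-phase list had 3 genes higher and 0 lower of 24 (median 0.25), where 1.32% of all genes were higher and 1.00% lower. Besides Lcn2, which is also in the GR list, these were Serpina3n, a secreted protease inhibitor, and Hp, haptoglobin. Serpina3n was at 229, 229.9, 196, and 202 RPKM unfed and 735, 572, 390.2, and 431 RPKM in fed dex + S961 livers (2.41-fold, adjusted p = 0.022), and its adjusted p was 0.085, 0.072, 0.054, 0.077, and 0.053 without fed dex + S961 replicate 1 or 2 or unfed replicate 1, 3 or 4. Hp was at 1364 to 1455 and 1815 to 2409.9 RPKM and rose 1.45-fold (adjusted p = 0.047), a call that no subset of 7 libraries kept (adjusted p of 0.054 to 0.16). Gdf15, a circulating stress hormone, went from 0.7, 1.53, 0.687, and 1.84 to 9.54, 7.11, 4.82, and 6.03 RPKM and rose 4.45-fold (adjusted p = 0.0061). Cldn14, a tight junction claudin, rose 3.51-fold (adjusted p = 0.011). Dex alone gave a rise against unfed of 4.09-fold for Cldn14 and 1.66-fold for Hp (adjusted p of 0.0037 and 0.0056). Usp18, which removes the ubiquitin-like ISG15, rose 2.84-fold (adjusted p = 0.007) as the single gene called of 21 interferon-stimulated genes. That count lies near the share of all genes and is no result about the list. The summed level of 11 Kupffer cell and macrophage markers was 117 to 122 RPKM unfed and 98.6 to 163 RPKM in fed dex + S961 livers, and its part in these rises was not tested. It was 168 to 177 RPKM in fed vehicle livers.

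Genes of lipid and cholesterol synthesis that were called fell, with the exception of Aacs. Srebf1 was at 17.3, 13.8, 15.7, and 18.4 RPKM unfed, 8.82, 5.17, 7.99, and 6.81 RPKM in fed dex + S961 livers and 34.3, 35.2, 49.6, and 42.1 RPKM in fed vehicle livers. No 2 groups overlapped, and the treated fed livers lay below the unfed livers while the fed vehicle livers lay above them. Its log2 fold change was -1.14 (SE 0.22, interval -1.61 to -0.68, adjusted p = 0.0089) against unfed and -2.41 against fed vehicle (adjusted p = 3.2e-06). Of 24 genes of cholesterol synthesis and uptake, 2 fell and 0 rose against unfed (median -0.30), where 1.00% of all genes fell and 1.32% rose. After scaling 1 fell, and without replicate 4 of every group 3 did. Against fed vehicle, 10 of the 24 were lower, where 7.90% of all genes were and the median of all genes was -0.14. Among the genes that fell, Insig1, a sterol-sensing retainer of SREBP, went from 55.0, 54.9, 51.7, and 44.7 to 29.2, 26.2, 31.9, and 22.8 RPKM (1.86-fold lower, adjusted p = 0.015), with an adjusted p of 0.06, 0.054, and 0.05 without fed dex + S961 replicate 4, unfed replicate 1 or unfed replicate 2. Of 18 fatty acid synthesis genes, 1 rose and 2 fell, or 1 and 1 after scaling (median -0.26). Apart from Srebf1, the one that fell was Acss2, which makes acetyl-CoA from acetate.

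Falls of the largest size were in genes of varied function. Osgin1, a gene induced by oxidative stress, was at 44.0, 44.7, 50.9, and 66.1 RPKM unfed and at 12.4, 11.9, 15.1, and 10.02 RPKM in fed dex + S961 livers (4.02-fold lower, SE 0.29 log2, adjusted p = 0.00093). The groups were far apart, and fed vehicle livers ranged from 34.9 to 130.2 RPKM. Kank1, an adaptor of the cytoskeleton, went from 8.49, 7.82, 7.63, and 9.66 to 3.21, 2.60, 2.72, and 2.43 RPKM (2.75-fold lower, adjusted p = 0.00019), and Prkd3, a protein kinase D, fell 2.15-fold (adjusted p = 0.0006). Depdc7, Efna1, a ligand of Eph receptors, and Tmem25 fell 2.57-fold, 2.24-fold, and 2.13-fold (adjusted p of 0.0027, 0.0043, and 0.00072). Dex alone lowered Depdc7 1.90-fold and Efna1 2.22-fold against unfed (adjusted p of 0.027 and 0.0031). Hhex, a homeobox factor of liver development, went from 22.5, 17.9, 27.97, and 54.2 to 6.26, 3.14, 12.7, and 12.3 RPKM (3.55-fold lower, adjusted p = 0.03). The adjusted p of Hhex was 0.088, 0.11, 0.057, 0.081, and 0.099 without fed dex + S961 replicate 1 or 2 or unfed replicate 1, 3 or 4, and 0.068 without replicate 4 of every group. Rnf43, which removes Wnt receptors from the cell surface, fell 2.25-fold (adjusted p = 0.041). The lipid-binding gene Sec14l2 fell by 0.41 (log2, adjusted p = 0.044). Both calls were lost without any 1 library, with adjusted p-values of up to 0.13 for Rnf43 and 0.14 for Sec14l2. Oaf fell from 47.3 to 65.2 RPKM unfed to 32.0 to 36.8 RPKM (adjusted p = 0.031), a call kept in 1 of the 8 fits without 1 library, that without unfed replicate 4 (adjusted p of up to 0.1 in the others). In the clock list (17 genes), Per3 fell 1.58-fold (adjusted p = 0.0091) and Ciart, a repressor of CLOCK and BMAL1, rose 1.68-fold (adjusted p = 0.012). Both were at an adjusted p above the threshold without replicate 4 of every group (0.058 and 0.052), and Ciart also without unfed replicate 1 (0.052). Ciart rose 1.85-fold against unfed with dex alone (adjusted p = 0.0028).

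Some genes had moved the same way in fed vehicle livers, which shared the unfed mice. Of 25 ribosome biogenesis genes, 2 rose and 0 fell in fed dex + S961 livers (median 0.35), 5 rose in fed vehicle livers (median 0.37), and 0 were called between the fed groups (limma, 2 at an unadjusted p under 0.05), with 0 also called between them after median-ratio scaling but 2 lower in fed dex + S961 livers without replicate 4 of every group. The rises numbered 4 in fed dex + S961 and 1 in fed vehicle livers after scaling, and 5 and 10 without replicate 4 of every group. Of all genes, 1.32% rose in fed dex + S961 and 2.55% in fed vehicle livers. Between the fed groups, 2.69% of all genes were higher and 7.90% lower in fed dex + S961 livers. Nop2, a ribosomal RNA methyltransferase, was at 6.68, 7.16, 7.12, and 5.86 RPKM unfed, 9.71, 10.2, 13.8, and 9.69 RPKM in fed dex + S961 and 12.5, 10.4, 12.3, and 13.0 RPKM in fed vehicle livers. Every fed liver of both groups was above every unfed liver. Nop2 rose 1.56-fold (SE 0.12 log2, adjusted p = 0.0077), and its difference from fed vehicle was -0.15 (interval -0.41 to 0.10, adjusted p = 0.48). Nop58, a core protein of box C/D ribonucleoproteins, rose 1.82-fold (adjusted p = 0.022), with an adjusted p of 0.077, 0.06, 0.052, 0.081, and 0.056 without fed dex + S961 replicate 3 or 4 or unfed replicate 2, 3 or 4. Aacs, a ketone body-using enzyme of lipid synthesis, went from 9.90, 9.58, 9.48, and 14.2 RPKM unfed to 27.3, 22.6, 38.8, and 26.97 RPKM (2.59-fold, adjusted p = 0.034), and fed vehicle livers held 39.8, 48.5, 45.2, and 12.2 RPKM. Acss2 fell 1.81-fold (adjusted p = 0.038) from 45.9 to 91.8 RPKM unfed to 35.8 to 42.7 RPKM, beside 31.5 to 45.8 RPKM in fed vehicle livers. The autophagy regulator Depp1 went from 25.5, 21.9, 13.4, and 5.79 RPKM to 4.65, 4.93, 4.35, and 2.83 RPKM (3.26-fold lower, adjusted p = 0.032), with 0.669 to 2.01 RPKM in fed vehicle livers. The calls of Aacs, Acss2 and Depp1 were kept in 1 of the 8 fits without 1 library, that without unfed replicate 4, and their adjusted p reached 0.11, 0.16, and 0.13 in the other 7. Klf10, a transcription factor induced by glucose through ChREBP, rose 2.38-fold from 3.89 to 4.87 RPKM to 9.27 to 13.8 RPKM (adjusted p = 0.00075), beside 5.38 to 9.14 RPKM in fed vehicle livers, and was the single gene called of the ChREBP list.

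The chaperone lists had medians close to the unfed level. Of 21 genes of endoplasmic reticulum chaperones and the unfolded protein response, 0 passed the limma test against unfed or had an unadjusted p under 0.05 (median 0.04), 12 had risen in fed vehicle livers (median 0.77), and 15 were lower in fed dex + S961 than in fed vehicle livers (median -0.72). After median-ratio scaling these counts were 0, 4, and 6, and the medians kept their signs (0.08, 0.65, and -0.56). Without replicate 4 of every group, 14 of the 21 were lower and 1 higher than in fed vehicle livers. Of all genes with all libraries, 2.55% were higher in fed vehicle than unfed livers. Against fed vehicle, 7.90% of all genes were lower in fed dex + S961 livers, with a median of all genes of -0.14. Markers of other cells moved along with these differences from fed vehicle livers: of 11 Kupffer cell and macrophage markers, 11 had a negative value and 4 were called lower in fed dex + S961 (median -0.46), and 11 had a positive value and 4 were called higher in fed vehicle than unfed (median 0.53). After scaling none of these was called (medians -0.32 and 0.41), and without replicate 4 of every group 6 were called in each. Of 11 sinusoidal endothelial markers, 8 had a negative value against fed vehicle and 1 was called lower (median -0.31). Their part in the differences from fed vehicle livers was not tested. Hspa5, the chaperone BiP, was at 199, 191, 185, and 223 RPKM unfed, 274, 183, 241, and 193 RPKM in fed dex + S961 and 408, 416, 421, and 578 RPKM in fed vehicle livers. The first 2 groups overlapped and every fed vehicle liver was higher. Its log2 fold change was 0.14 (adjusted p = 0.94) against unfed and -1.04 (adjusted p = 0.0078) against fed vehicle. Of 14 heat shock genes, 0 were called against unfed and 0 had an unadjusted p under 0.05 (median -0.14) and 6 were lower than in fed vehicle livers, or 1 after scaling and 2 without replicate 4 of every group. Lists of bile acid synthesis and transport (14 genes), growth hormone and STAT5 (18), ATF4 targets (14), glycolysis (15), cytosolic ribosomal proteins (26) and the respiratory chain (22) had 0 genes called against unfed, with medians between -0.09 and 0.16. At an unadjusted p under 0.05 in limma they had 3, 1, 3, 2, 0, and 0 genes. Without replicate 4 of every group, 1 gene rose in the growth hormone list and 1 in that of glycolysis, the latter also after scaling. One gene each was called among 15 immediate-early genes, Dusp1, and 15 autophagy genes, Depp1. Of all genes tested, 1.32% were higher and 1.00% lower than unfed. A count of 0 or 1 in any of these lists, the chaperone lists included, lies near that share and is no result about the members.

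**Figure D4:**
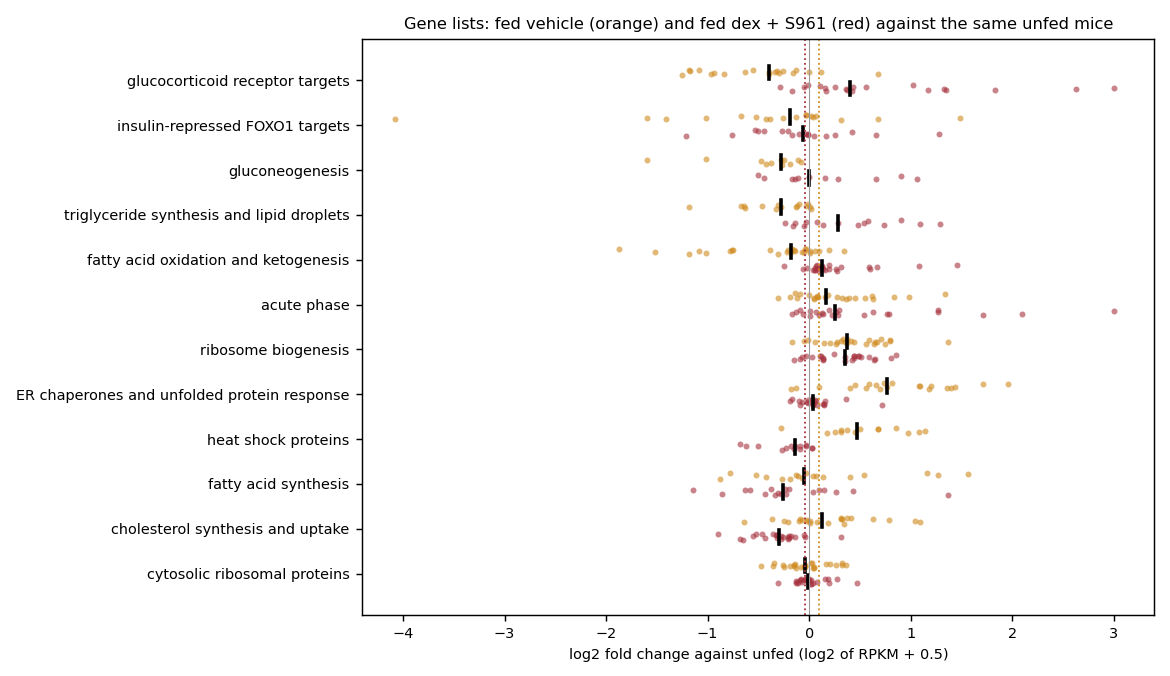
Each dot is 1 gene of a list, placed by its log2 fold change against the unfed mice (x axis), orange for fed vehicle and red for fed dex + S961, with a black bar at the median and dotted lines at the medians of all genes (0.10 and -0.04). Both comparisons share the unfed livers. Ribosome biogenesis has like medians of 0.37 and 0.35, whereas the chaperone list is at 0.77 and 0.04 and the GR targets at -0.40 and 0.40.

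Mice that shared no library with this comparison gave other readings of the same genes. Feeding lean chow-fed mice raised 1841 of 11431 genes (16.1%) and lowered 832 (7.28%), or 1210 and 1126 after median-ratio scaling and 1177 and 1150 after quantile normalization, with 1171 higher without lean fed replicate 2 and 525 lower without lean unfed replicate 2. Of the 148 genes higher in fed dex + S961 than in unfed livers, 142 were tested there, of which 52 were lowered by the meal (36.6%) and 17 raised. In all, 99 of the 142 (69.7%) had a negative sign in lean mice, beside 38.5% of all genes. Of the 113 lower genes, 23 were raised (20.4%) and 15 lowered, and 59.3% had a positive sign, beside 61.5% of all genes. In mice of the feeding experiment without injection, sequenced after ribosomal depletion with 2 mice a group, 64.9% of 134 higher genes had a negative sign and 74.1% of 112 lower genes a positive sign, beside 29.7% and 70.3% of all genes. Lpin1 (log2 -2.75), Ppargc1a (-1.90), Phf11c (-1.31) and Ppp1r3g (-3.70) were among the genes that the meal lowered in lean mice (adjusted p of 0.0029, 0.00082, 0.0016, and 0.00041), whereas Cldn14 (1.12, adjusted p = 0.0037) and Nop2 (1.18, adjusted p = 0.00083) were raised.

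Unfed GR fl/fl mice were compared between delivery of CRE and of GFP by adeno-associated virus (AAV), with CRE under the liver-specific Tbg promoter. Nr3c1 was at 3.93 to 5.35 RPKM with AAV-CRE and 12.8 to 16.2 RPKM with AAV-GFP. There, 519 of 11646 genes were higher (4.46%) and 259 lower (2.22%) after loss of GR. Of 142 tested genes among those higher in fed dex + S961 livers, 32 were lower without GR (22.5%) and 3 were higher. Of the 113 lower genes, 35 were higher without GR (31.0%) and 0 were lower. Lpin1 (log2 -4.50), Got1 (-1.40), Plin5 (-1.28) and Plin4 (-1.41) were lower without GR (adjusted p of 6.2e-07, 0.0036, 0.0096, and 0.037), and Efna1 (1.13), Prkd3 (0.88) and Osgin1 (1.35) were higher (adjusted p of 0.0024, 0.0055, and 0.027). Setdb2 and Lcn2 gave -0.30 and -0.46 in this comparison and did not pass the test (adjusted p of 0.32 and 0.51).

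Fed mice given dex were also compared between liver loss of Irs1 and Irs2 (IRS dKO, both genes fl/fl with Alb-Cre, an albumin-driven recombinase active in hepatocytes) and floxed controls. Irs1 was at 0.149 to 0.321 RPKM in the dKO and 2.21 to 4.73 RPKM in control livers. Irs2 was at 0.272, 1.00, 0.932, and 0.886 RPKM in the dKO and at 0.614, 1.63, 5.61, and 0.929 RPKM in control livers, so that the groups overlapped and the second target did not pass the test (log2 -0.79, interval -1.92 to 0.34, adjusted p = 0.31). The RPKM values of these libraries differ from those of the injected mice, since the highest of any gene was 674 to 914, against 36722 to 58443 in unfed vehicle livers. Whether scaling or make-up differs was not tested. The same filter and pseudocount of 0.5 RPKM were used on these values. Of 12963 genes, 1172 were higher (9.04%) and 1078 lower (8.32%) in the dKO. Of the 148 genes higher in fed dex + S961 livers, 37 were higher in the dKO (25.0%) and 8 lower. Of the 113 lower genes, 12 were higher and 15 lower. Lepr (log2 5.22, adjusted p = 0.0003), Ppp1r3g (4.97, adjusted p = 0.0042) and Sesn1 (1.94, adjusted p = 0.024) were among those higher. Lepr, at 2.42 to 4.93 RPKM in control livers and 78.6 to 198 RPKM in the dKO, did not overlap between the groups.

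GR and FOXO1 peaks of liver chromatin from unfed mice without injection lay near many of the called genes. For 9832 of the 11248 genes a start was found in GENCODE vM1 (NCBIM37), and 25.7% of these had a GR peak within 10 kb. This share was 64.7% for genes higher in fed dex + S961 than unfed (86 of 133) and 42.6% for genes lower (43 of 101). FOXO1 peaks lay within 10 kb of 29.1% of all, 48.9% of higher and 44.6% of lower genes. Higher-expressed genes have more peaks near them: among those whose mean reached 5 RPKM, GR peaks were near 34.5% of all, 70.0% of higher and 57.1% of lower genes, and FOXO1 peaks near 36.8%, 54%, and 59.2%. Within 50 kb, the GR shares were 51.8%, 90.2%, and 72.3%. The lists hold positions without heights, and no test was made of these shares. Among the named genes, Lcn2, Serpina3n, Sgk1, Lpin1 and Got1 had a GR peak within 137, 122, 224, 327, and 364 bases of a start.

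**Figure D5:**
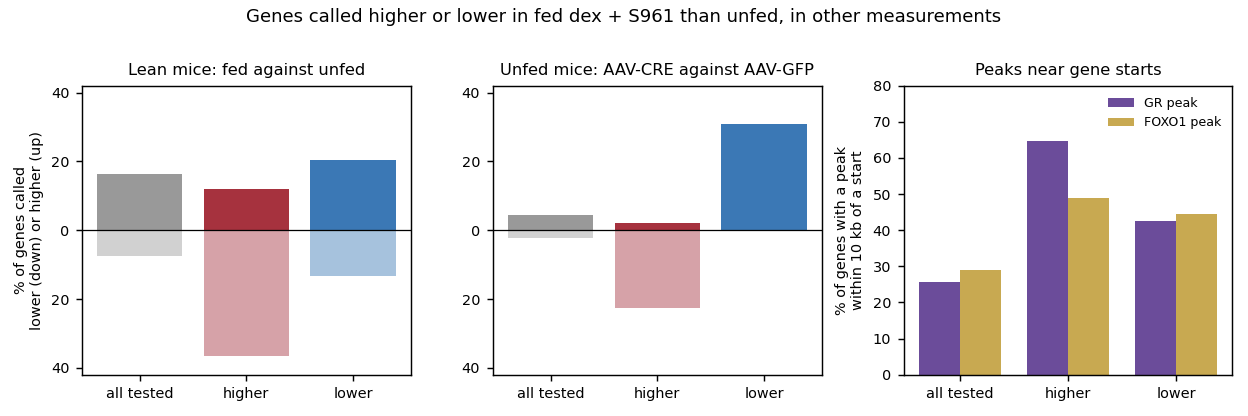
Bars give the percent of genes called in lean fed against lean unfed mice (left), in unfed mice with AAV-CRE against AAV-GFP (middle), each upward for higher and downward for lower genes, and the percent with a GR or FOXO1 peak within 10 kb of a start (right), for all genes tested and for genes higher or lower in fed dex + S961 than unfed livers. Of the higher genes, 36.6% were lowered by a meal in lean mice and 64.7% had a GR peak nearby.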

How the data were processed

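Liver RNA of single mice was sequenced after poly(A) selection in the injected mice. Per the labels, the authors aligned reads to mm9 with STAR and deposited RPKM on 35707 RefSeq IDs, of which 35402 matched a symbol and 0 value columns were left unused. RPKM corrects for length and depth, but a few abundant transcripts can shift it. The peak lists deposited by the authors (HOMER) hold positions only. Depth is known only relative to other libraries, and genes near the filter rest on few reads. Replicates are separate mice.

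Here, each symbol was reduced to 1 ID, the most abundant on average in the 54 RNA libraries. Genes averaging 0.5 RPKM or more in the 20 injected libraries were fitted with limma 3.58.1 (R 4.3.3) on log2(RPKM + 0.5), with all 5 groups in 1 fit, a variance trend and Benjamini-Hochberg adjustment at 0.05. The study called genes with DESeq2 on counts, which were not used here. The other experiments were fitted apart in the same way. Peaks and sequences were handled in Python 3.11.15 (numpy 2.4.6, pandas 2.3.3), and symbols were matched to NCBI RefSeq names (GRCm38.p6) for names and neighbours only. The fits were run on simulated data with independent noise for each gene and no shift of replicate 4. That run does not cover the difference of replicate 4 seen in these libraries.

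Named genes were the 10 largest rises and falls with groups that did not overlap and a higher mean of at least 2 RPKM, the called genes of each list with the largest changes (up to 4), the 4 largest RPKM differences in each direction, the genes the study names, and up to 3 abundant list members outside the threshold. Members and lists were chosen with earlier results of these data known. Alternatives were pseudocounts, filters, scalings, all RefSeq IDs, no variance trend, the 2 groups alone, a replicate block, a term for the runs of library numbers, and libraries left out. Some genes of the lists, and some that the study names, are not reported here. The aligner's version, the counting tool and the strand counted are not given in the sources used here. DNase and H3K27Ac data were not used here.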

Additional observations from a re-analysis of the deposited data

Results flagged for a closer look

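The screen for libraries apart took the named genes that were called against unfed or that the study names, and not the other named list members. In 9 of these 114 groups of 4 livers, 1 library lay far from the other 3 by Dixon's criterion, and chance flags about 1 in 20 groups. The library was replicate 4 in 6 of the 9 groups. In unfed livers these were Aacs at 14.2 RPKM, with the others at 9.48 to 9.9, Oaf at 47.3 (64.3 to 65.2) and Ppargc1a at 3.35 (2.79 to 2.86). In fed dex + S961 livers, replicate 4 was apart for Dusp1 at 55.1 (31.5 to 32.6), Fkbp5 at 86.0 (96.2 to 98.1) and Per3 at 2.94 (3.51 to 3.61). The others were fed dex + S961 replicate 3 for Nop2 at 13.8 (9.7 to 10.2), replicate 2 for Sesn1 at 19.7 (12.2 to 13.5) and replicate 1 for Sgk1 at 26.8 (16.4 to 17.8). Of these genes, Aacs, Oaf, Ppargc1a, Dusp1, Per3, Nop2 and Sesn1 kept their call against unfed without the library in question, Sgk1 did not (adjusted p = 0.056, limma), and Fkbp5 was not called with all libraries.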

How the results depend on the processing

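No called value of a named gene reversed its direction under the alternatives run. Against unfed, the term for the runs of library numbers gave 284 genes higher and 262 lower, among them all 148 and all 113. The replicate block gave 285 and 238. Replicate numbers were not taken to pair the mice, since the deviations of same-numbered libraries correlated at 0.226, 0.086, 0.118, and 0.589, and the block stands beside the term for runs only. Leaving out 1 library gave 86 to 121 higher and 40 to 92 lower genes. Of the 47 named genes called, 26 held without any 1 library. Against fed vehicle, the term for runs gave 475 higher and 1728 lower, the block 1588 lower, median-ratio scaling 468 and 305, quantile normalization 319 lower, the 2 groups alone 572 lower, and 1 library left out 208 to 297 and 459 to 795. For fed vehicle against unfed, the values were 100 and 116 after median-ratio scaling, 113 and 102 after quantile normalization, 756 and 172 with the block, 833 and 203 with the term for runs, 549 and 169 without replicate 4 of every group, and 67 to 316 and 19 to 79 without 1 library. Lean mice gave 1210 and 1177 genes higher with the 2 scalings, and 1171 to 1549 higher and 525 to 718 lower without 1 library. The share of lower genes with a positive sign was 59.3% in lean mice and 74.1% in uninjected mice of the feeding experiment. The cause of these differences was not tested. Counts from the other pseudocounts, filters and IDs stayed within 1.5 times. RPKM of low genes are limited by depth, which was lowest in fed dex + S961 replicate 4 (0.646 of unfed replicate 1).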
